A study of Canis lupus familiaris with 25 samples.

Results

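Fluid secretion by a gland rests on a small set of membrane proteins. Chloride is loaded into the cell by the sodium-potassium-chloride cotransporter NKCC1, encoded by SLC12A2, with energy from the sodium pump, and leaves at the lumen through channels such as CFTR and the calcium-activated channel ANO1. Sodium follows, water crosses through aquaporins, and ducts take sodium back through the epithelial sodium channel ENaC. The genes described here are 10 members of this machinery: the aquaporins AQP1, AQP3 and AQP5, the ENaC subunits SCNN1A, SCNN1B and SCNN1G, the chloride channels CFTR and ANO1, the cotransporter SLC12A2 and the sodium pump subunit ATP1B1. They were chosen by symbol, and all 10 were found among the 24532 genes of the count table.

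The samples were formalin-fixed, paraffin-embedded tumors surgically removed from pet dogs, sequenced from the 3′ ends of mRNA. Hepatoid gland adenoma (HGA) is a benign tumor of the modified sebaceous glands around the anus, and 10 were measured, 6 from dogs not recorded as neutered (called intact) and 4 from neutered dogs, aged 8 to 14 years. Apocrine gland anal sac adenocarcinoma (AGASAC) is a malignant tumor of the glands in the anal sac wall, and 11 primary tumors were measured, 2 from intact and 9 from neutered dogs, aged 8 to 12.5 years. The third group was 4 metastases in the sublumbal lymph nodes of the dogs with AGASAC 1 to 4, 1 of them intact, aged 8 to 10 years. No group carried an experimental treatment, each HGA and each primary AGASAC came from a different dog, and no normal gland was analysed here.

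The libraries held 1562347 to 6389555 counts in HGA, 2581453 to 4218340 in primary AGASAC and 2857541 to 3289546 in metastases, so that 3 counts in a library correspond to between 0.543 and 1.84 CPM (counts of a gene per 1000000 counts of the library). All levels below are CPM scaled by the trimmed mean of M-values over the 25 samples, and comparisons were made with edgeR, a gene being called where its adjusted p was 0.05 or less and its log2 fold change 1 or more in size. The summed level of 7 stratified epithelium genes was 4656 to 15345 CPM in HGA and 1.34 to 36.1 CPM in primary AGASAC, and that of 7 simple gland epithelium genes was 586 to 2027 CPM in HGA and 4330 to 7350 CPM in primary AGASAC. Skeletal muscle genes summed to 9.23 to 1084 CPM in primary AGASAC against 1.71 to 25.5 CPM in HGA and 2.24 to 7.79 CPM in metastases. The 9 lymph node B and T cell genes summed to 49.3 to 63.4 CPM in metastases and 15.6 to 90.3 CPM in the 11 primary tumors. Smooth muscle and myoepithelial genes overlapped, at 98.0 to 296 CPM in HGA, 60.9 to 481 CPM in primary AGASAC and 54.2 to 772 CPM in metastases. The part of these other cells in the differences below was not tested. In bulk samples, fewer cells of a type and less RNA per cell cannot be told apart.

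HGA were compared with primary AGASAC to see how the benign and the malignant tumor differ. Of the 10 members, 9 passed the filter on low counts and 7 were called: AQP1 was higher in HGA, and AQP3, AQP5, SCNN1B, SCNN1G, ANO1 and SLC12A2 were higher in AGASAC. Of all 12070 genes tested, 25.1% were called, 12.6% as higher in HGA and 12.5% as higher in AGASAC. The median log2 fold change of the 9 tested members was -4.06, HGA relative to AGASAC, and that of all genes tested was -0.03. In 2 of the 10 members, AQP5 and SLC12A2, no HGA overlapped any primary AGASAC, as was the case for 9.13% of all genes tested.

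**Figure D1:**
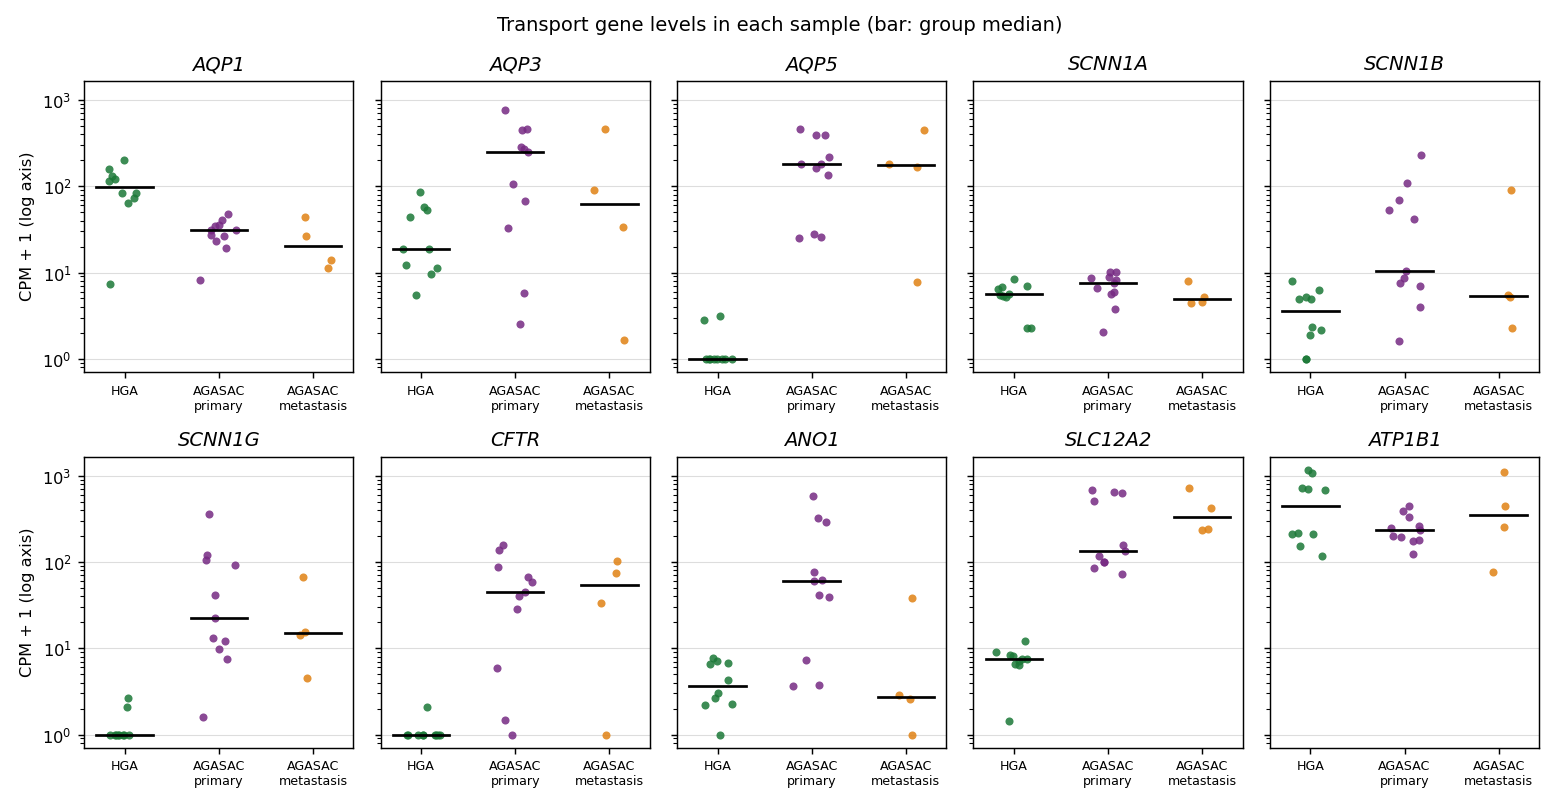
Level of each transport gene in every sample (vertical log axis, CPM + 1; 1 point per sample, bar at the group median; 10 HGA, 11 primary AGASAC and 4 metastases). AQP5 and SLC12A2 separate HGA from both AGASAC groups completely, while AQP3, SCNN1B and ANO1 spread widely among the AGASAC samples and reach into the HGA range.

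Among the water channels, AQP5, the aquaporin of the apical membrane in salivary, lacrimal and sweat glands, was almost absent from HGA. It had 0 counts in 8 of 10 HGA, 1.81 CPM in HGA 2 and 2.13 CPM in HGA 7. In the primary AGASAC it ranged from 24.1 CPM through a median of 179 to 464 CPM. Every primary tumor was above every HGA, and 3 of them (AGASAC 3, 4 and 8) lay together at 24.1 to 27.0 CPM while the other 8 had at least 133 CPM. HGA relative to AGASAC, the log2 fold change was -8.80 ± 0.83 (SE; edgeR, adjusted p = 7.68e-08; n = 10 and 11), and it was -9.87 without HGA 7. With at most 7 counts in any HGA, AQP5 passes the filter on low counts only through the AGASAC, where it is high.

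AQP3, a channel for water and glycerol that is typical of basolateral membranes and of the epidermis, was present in both tumors. It ranged from 4.49 CPM through a median of 17.8 to 85.4 CPM in HGA and from 1.51 CPM through a median of 245 to 761 CPM in primary AGASAC. Of the 11 primary tumors, 7 were above every HGA, and AGASAC 1 at 1.51 CPM was below every HGA. This gave a log2 fold change of -2.96 ± 0.76 (SE; edgeR, adjusted p = 0.0245; n = 10 and 11). The call was lost when HGA 3, 5, 7 or 9 or AGASAC 5 was left out, with log2 fold changes between -3.28 and -2.62 over the 21 fits without 1 sample. The names of the sequencing files fall into 2 series, here A and B, whose meaning is not given in the sources used here. Within series A (9 HGA and AGASAC 1 to 3) the sign turned, to 1.23 ± 0.94 (SE; edgeR, adjusted p = 1).

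AQP1, the water channel of capillary endothelium, red cells and some secretory epithelia, went the other way. It ranged from 6.45 CPM through a median of 97.7 to 203 CPM in HGA and from 7.29 CPM through a median of 30.0 to 46.5 CPM in primary AGASAC. The 9 HGA from 62.7 CPM upwards were above every primary tumor, and HGA 10 at 6.45 CPM was below them all. With a log2 fold change of 1.88 ± 0.36 (SE; edgeR, adjusted p = 0.00129; n = 10 and 11), AQP1 was the only member called as higher in HGA. The summed level of 12 endothelial genes was also higher in HGA, at 259 to 748 CPM (median 364), than in primary AGASAC, at 116 to 471 CPM (median 213). Of the 10 endothelial genes tested, 3 (CDH5, TIE1 and CLDN5) were called as higher in HGA, with a median log2 fold change of 0.99 over the 10. Of all genes tested, 12.6% were called as higher in HGA. ESAM, of the same list, went the other way and was not called (log2 fold change -1.86 ± 0.65, SE; edgeR, adjusted p = 0.212). HGA 10, lowest in AQP1, had an endothelial sum of 275 CPM, the second lowest of the 10 HGA after HGA 9 at 259 CPM. On the log2 scale AQP1 and the endothelial sum correlated at r = 0.59 over the 25 samples, which includes the difference between tumor types, at r = 0.47 over the 10 HGA and at r = 0.12 over the 11 primary AGASAC. Of the marker sums, the closest to AQP1 was stratified epithelium over the 25 samples (r = 0.65). It was simple gland epithelium over the HGA (r = 0.77) and skeletal muscle over the primary AGASAC (r = 0.70). Simple gland epithelium was at r = -0.49 over the 25 samples and -0.09 over the primary AGASAC. The part of endothelium or of these other cells in the AQP1 difference was not tested.

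Of the 3 subunits of ENaC, which form 1 channel at the apical membrane of sodium-absorbing ducts, SCNN1B and SCNN1G were called and SCNN1A was not, and the difference between subunits was not tested. SCNN1A, the alpha subunit, ranged from 1.27 CPM through a median of 4.60 to 7.39 CPM in HGA and from 1.05 CPM through a median of 6.53 to 9.19 CPM in primary AGASAC. The ranges overlapped, and the log2 fold change was -0.40 ± 0.35 (SE; edgeR, adjusted p = 1; n = 10 and 11).

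SCNN1G, the gamma subunit, had 0 counts in 8 of 10 HGA, 1.08 CPM in HGA 5 and 1.64 CPM in HGA 8. In primary AGASAC it ranged from 0.593 CPM in AGASAC 3 through a median of 21.1 to 355 CPM in AGASAC 11, and 10 of 11 primary tumors were above every HGA. SCNN1G had a log2 fold change of -8.02 ± 1.11 (SE; edgeR, adjusted p = 2.58e-05; n = 10 and 11). The gene passed the filter on low counts in 11 of 21 fits that left out 1 sample, and was called in each of those 11, with a log2 fold change of -9.16 without HGA 8. With at most 4 counts in any HGA, it passes this filter only through the AGASAC, where it is high. These 11 calls are therefore no measure of its stability.

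SCNN1B, the beta subunit, was present at low levels in most HGA, from 0 through a median of 2.62 to 7.01 CPM. In primary AGASAC it ranged from 0.593 CPM through a median of 9.44 to 230 CPM, and 7 of the 11 were above every HGA. Its log2 fold change was -4.06 ± 0.85 (SE; edgeR, adjusted p = 0.00393; n = 10 and 11), and it was -3.40 without AGASAC 11. With the RNA extraction batch as a covariate the log2 fold change was -2.85 (edgeR, adjusted p = 0.0683), and within the samples of file-naming series A it was -0.09 ± 0.90 (SE; edgeR, adjusted p = 1).

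The chloride channel CFTR was nearly confined to AGASAC among these samples. It had 0 counts in 9 of 10 HGA and 2 counts, or 1.08 CPM, in HGA 5. The 11 primary tumors ranged from 0 counts in AGASAC 9 and 0.486 CPM in AGASAC 11 through a median of 43.4 to 154 CPM in AGASAC 3, and 9 of them were above every HGA. CFTR fell below the low-count filter, which asks for enough counts in about as many samples as the smaller group holds. From pooled counts (1951 in primary AGASAC and 2 in HGA) its level was 774 times that of HGA, with a 95% interval of 214 to 6397 for counting error only. Without the filter, its log2 fold change was -8.95 (edgeR, adjusted p = 4.69e-06), and it was also called by DESeq2 (-9.01, adjusted p = 1.65e-12) and within naming series A (-9.57 ± 0.65, SE; edgeR, adjusted p = 1.09e-06). In series A it passed the filter only through the AGASAC, as no HGA had more than 2 counts.

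ANO1, the calcium-activated chloride channel of salivary and other acinar cells, was low in HGA, from 0 through a median of 2.64 to 6.78 CPM. In primary AGASAC it ranged from 2.61 CPM through a median of 58.9 to 581 CPM. The 8 primary tumors from 38.3 CPM upwards were above every HGA, while AGASAC 2, 3 and 5, at 2.61 to 6.23 CPM, lay within the HGA range. Its log2 fold change was -5.30 ± 0.89 (SE; edgeR, adjusted p = 0.000308; n = 10 and 11), and within naming series A it was -2.05 ± 0.70 (SE; edgeR, adjusted p = 0.366).

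SLC12A2, the gene of the chloride-loading cotransporter NKCC1, separated the tumors completely. It had 0.424 CPM in HGA 9 and 5.46 to 11.0 CPM in the other 9 HGA. In primary AGASAC it ranged from 71.6 CPM through a median of 134 to 673 CPM, with 4 tumors (AGASAC 1, 3, 5 and 11) at 513 CPM or more and the other 7 at 157 CPM or less. The log2 fold change was -5.46 ± 0.54 (SE; edgeR, adjusted p = 1.79e-07; n = 10 and 11).

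ATP1B1, the beta-1 subunit that brings the sodium pump to the membrane, ranged from 118 CPM through a median of 448 to 1162 CPM in HGA and from 124 CPM through a median of 232 to 438 CPM in primary AGASAC. The HGA fell into 5 samples at 118 to 218 CPM and 5 at 677 CPM or more, and the latter were above every primary tumor. The mean was 753 ± 338 CPM in the 6 HGA of intact dogs and 174 ± 47.2 CPM in the 4 of neutered dogs (SD). Primary AGASAC, 2 from intact and 9 from neutered dogs, had a mean of 251 ± 96.8 CPM (SD). The part of neuter status in the difference between the tumor types was not tested. The log2 fold change was 1.09 ± 0.37 (SE; edgeR, adjusted p = 0.189; n = 10 and 11) and was not called, although it was with the Benjamini-Hochberg adjustment (adjusted p = 0.0189).

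Of the file-naming series, series A held 9 HGA, AGASAC 1 to 3 and the 4 metastases, and series B held HGA 10 and AGASAC 5 to 11, while AGASAC 4 could not be placed. AQP3 was 1.51 to 32.0 CPM in the 3 series A primary tumors and 66.6 to 761 CPM in the 7 of series B. SCNN1B was 0.593 to 6.54 CPM against 6.03 to 230 CPM in the same tumors, and ANO1 was 2.61 to 38.3 CPM against 2.78 to 581 CPM. AGASAC 4, not placed in a series, had 267 CPM of AQP3, 68.9 CPM of SCNN1B and 61.1 CPM of ANO1, and its metastasis, in series A, had 464, 88.5 and 1.60 CPM of these genes. With 3 primary tumors in series A, the naming series and the spread between dogs cannot be told apart. AQP1 (log2 fold change 1.96), AQP5 (-8.83) and SLC12A2 (-6.12) were called within series A as well (edgeR, adjusted p = 0.00994, 3.53e-05 and 1.01e-05). AQP5, with at most 7 counts in any HGA, passes the filter there only through the AGASAC, so its call is no measure of stability. Within series A 16.1% of all genes tested were called. Only 3 extraction batches held at least 2 tumors of each kind. Within these batches (5, 6 and 8) the log2 fold change was 2.02, 1.94 and 1.94 for AQP1 and -6.05, -3.67 and -6.14 for SLC12A2. AQP5 was at 0 in the 3 HGA of batch 5 and had a log2 fold change of -7.67 in batch 6 and -8.02 in batch 8. With 2 or 3 samples a group, 0 members were called within batch 5, 4 within batch 6 (SCNN1G, CFTR, ANO1 and SLC12A2) and 1 within batch 8 (CFTR). SCNN1G and CFTR, with at most 4 and 2 counts in any HGA, pass the filter there only through the AGASAC. Their calls within batches are therefore no measure of stability. Of all genes tested, 2.12%, 4.84% and 2.46% were called within batches 5, 6 and 8, against 25.1% over the 21 tumors.

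**Figure D2:**
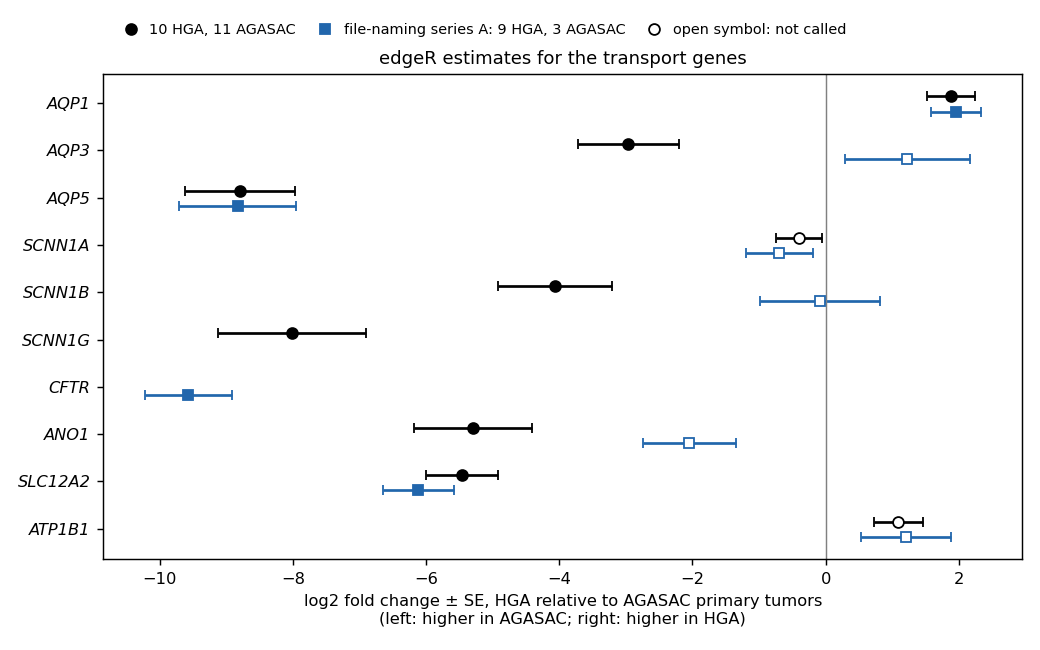
Log2 fold change of each gene, HGA relative to primary AGASAC, with its SE (horizontal axis; black circles, 10 HGA and 11 AGASAC; blue squares, the 9 HGA and 3 AGASAC of file-naming series A; open symbols, not called; no symbol, below the filter on low counts). AQP1 and AQP5 lie at nearly the same value in both fits, SLC12A2 moves from -5.46 to -6.12, AQP3 crosses 0 from -2.96 to 1.23, and SCNN1B moves from -4.06 to -0.09.

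The other genes of the pathway were taken from 7 lists of 105 genes in all, 89 of which were in the table and 49 of which were tested. Of the 49, 11 were called as higher in HGA, 12 as higher in AGASAC and 26 were not called, with a median log2 fold change of -0.23. Of all 12070 genes tested, 12.6% were called as higher in HGA and 12.5% as higher in AGASAC. The counts of each list below stand beside these shares, and no list was tested as a set. None of the 5 other aquaporins in the table passed the filter. For each other list the genes with the largest called changes are given with their values, and the further called genes, named after their values were seen, with their log2 fold change.

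Of the 11 tested regulators of ENaC, 5 were higher in AGASAC and 1 in HGA. SGK1, the kinase that keeps ENaC at the membrane, was 8.72 ± 5.00 CPM in HGA and 73.1 ± 63.7 CPM in primary AGASAC (SD, n = 10 and 11; log2 fold change -3.02 ± 0.53, SE; edgeR, adjusted p = 0.000533). PRSS8, a protease that activates ENaC (-3.01), the ubiquitin ligase NEDD4 (-2.38), HSD11B2, which protects the mineralocorticoid receptor from cortisol (-2.18), and the protease inhibitor SPINT2 (-1.54) were also higher in AGASAC. The exception was TMPRSS4, a membrane serine protease, at 49.4 to 186 CPM in HGA and no more than 2 counts in any primary AGASAC (edgeR, adjusted p = 1.52e-12). NEDD4L, the ligase of the NEDD4 family that removes ENaC, was not called. It was 27.8 ± 10.7 CPM in HGA and 26.7 ± 11.8 CPM in primary AGASAC (SD; log2 fold change 0.08).

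Of the 10 tested chloride channels and exchangers outside the members, 3 were higher in each tumor. CLCA2, a calcium-activated chloride channel regulator of stratified epithelia, was 8.63 to 53.3 CPM in HGA and had 0 counts in all 11 primary AGASAC. Against a floor of 3 counts per library its mean was at least 26.1-fold higher in HGA (edgeR, adjusted p = 5.84e-07). The bicarbonate exchanger SLC4A2 was 1.97 ± 1.83 CPM in HGA and 11.5 ± 4.76 CPM in primary AGASAC (SD; log2 fold change -2.47; edgeR, adjusted p = 0.000375; n = 10 and 11). TTYH3 (1.63) and ANO6 (1.55) were further genes higher in HGA, and TTYH2 (-2.27) and the sulfate transporter SLC26A2 (-2.00) were higher in AGASAC.

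Of 6 tested sodium pump subunits and modulators, 2 were higher in HGA. The pump modulator FXYD6 was 387 ± 199 CPM in HGA and 32.7 ± 14.1 CPM in primary AGASAC (SD; log2 fold change 3.59; edgeR, adjusted p = 2.94e-08; n = 10 and 11), and FXYD3, of the same family, was also higher in HGA (2.19).

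Of 8 cation-chloride cotransporters and kinases, 1 was called, the kinase STK39 (SPAK), which phosphorylates NKCC1. It was higher in HGA, with a log2 fold change of 1.63 ± 0.29 (SE; edgeR, adjusted p = 7e-04; n = 10 and 11). Of 8 proton, bicarbonate and potassium transport genes, the potassium channel KCNK5 was 2.57 ± 1.99 CPM in HGA and 102 ± 62.6 CPM in primary AGASAC (SD; log2 fold change -5.32; edgeR, adjusted p = 5.27e-08; n = 10 and 11). The scaffold SLC9A3R2 was higher in HGA (log2 fold change 1.64; edgeR, adjusted p = 1.11e-06), and the sodium-bicarbonate cotransporter SLC4A7 was higher in AGASAC (-1.43; edgeR, adjusted p = 0.0437). Of 6 receptors and regulators of secretion, 3 were higher in HGA, the nucleotide receptor P2RY2 (log2 fold change 4.01; edgeR, adjusted p = 0.000315) and the calcium release channels ITPR2 (2.45) and ITPR3 (1.17), and 1 was higher in AGASAC, the vasoactive intestinal peptide receptor VIPR1 (-3.85; edgeR, adjusted p = 0.0025).

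The members varied widely from 1 primary AGASAC to the next, and 45 pairs of members were compared over the 11 tumors on the log2(CPM + 1) scale. SCNN1B and SCNN1G rose and fell together, with Pearson's r = 0.94 (permutation p = 0.00013, 100000 resamples, adjusted over the 45 pairs p = 0.00585) and Spearman's rho = 0.85 (permutation p = 0.00184, adjusted p = 0.0776). Without the 2 tumors farthest from the median of SCNN1B r was 0.90 over 9 tumors, and within naming series B it was 0.97 over 7. AGASAC 11 was highest in both, at 230 CPM of SCNN1B and 355 CPM of SCNN1G, and AGASAC 3 was lowest in both, at 0.593 CPM each.

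SCNN1B and CFTR ran against each other, with r = -0.72 (permutation p = 0.012, adjusted p = 0.27) and rho = -0.82 (permutation p = 0.00345, adjusted p = 0.0776), neither past the threshold after adjustment. The 2 tumors without appreciable CFTR, AGASAC 9 and 11, had the highest SCNN1B, at 107 and 230 CPM, and AGASAC 3, with the highest CFTR at 154 CPM, had the lowest. Without the 2 tumors farthest from the median of SCNN1B r fell to -0.38 over 9 tumors, and rho without them was not computed. Within naming series B, which holds AGASAC 9 and 11, r was -0.71 over 7 tumors. Of the 45 pairs, only SCNN1B with SCNN1G passed the threshold after adjustment on Pearson's r, and 0 pairs did on Spearman's rho. The adjustment over the pairs was that of Benjamini-Hochberg.

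**Figure D3:**
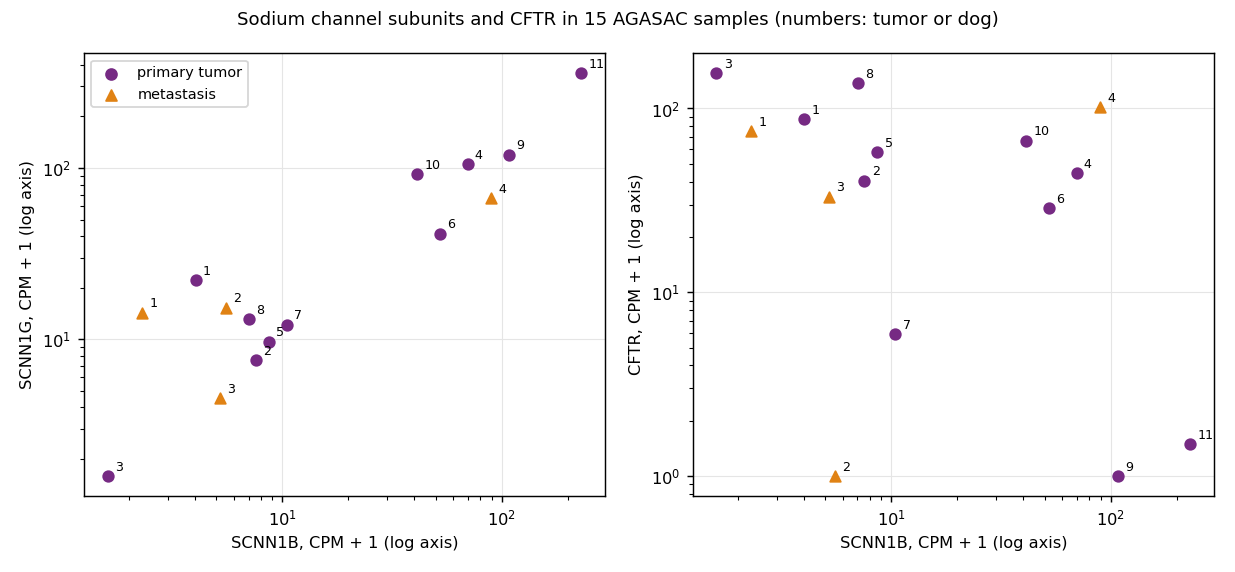
SCNN1G (left) and CFTR (right) against SCNN1B in the 11 primary AGASAC (circles) and 4 metastases (triangles), all in CPM + 1 on log axes and numbered by tumor or dog. SCNN1G rises with SCNN1B, and CFTR is at 0 and 0.486 CPM in AGASAC 9 and 11, the 2 tumors with the highest SCNN1B.

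Next, metastases and primary tumors from the same 4 dogs were set against each other to see whether the genes change in the lymph node. None of the 10 members was called by edgeR, none had an unadjusted p under 0.05, and none was called by DESeq2. These fits held no term for the dog. The log2 fold changes, SE and p given per gene for this comparison therefore do not use the pairing, unless a block is named. Of all 12629 genes tested, 0% were called by edgeR and 1.15% had an unadjusted p under 0.05, while DESeq2 called 5 genes and edgeR with the dog as a block called 1. With the dog as a block 0 members were called, and AQP3, which was 1.37 higher on the log2 scale in metastases, had an unadjusted p of 0.0113 (edgeR, adjusted p = 1). In that fit 491 of the 12629 genes tested had an unadjusted p under 0.05. Of 53 other pathway genes tested, 0 were called.

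Lymph node B and T cell genes were higher in the metastasis of 4 of 4 dogs, with sums of 53.9 and 61.6 CPM in dog 1, 32.0 and 49.3 CPM in dog 2, 21.6 and 63.4 CPM in dog 3, and 33.4 and 59.7 CPM in dog 4, primary tumor first. Of the 6 tested, 0 were called, with a median log2 fold change of 0.95, and their part in the values below was not tested.

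The values within dogs show large differences that did not share a direction. ANO1 fell from 38.3 CPM in the primary tumor of dog 1 to 0 counts in its metastasis, at least 39.3-fold lower against a floor of 3 counts, and from 61.1 to 1.60 CPM in dog 4. In dog 2 it was 2.61 CPM in the primary tumor and 1.86 CPM in the metastasis, and in dog 3 it was higher in the metastasis, at 6.23 and 37.3 CPM. The log2 fold change was -1.43 ± 1.38 (SE; edgeR, adjusted p = 1; n = 4 and 4).

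CFTR was 39.5 CPM in the primary tumor of dog 2 and had 0 counts in its metastasis, at least 49.7-fold lower against the same floor. It was 86.2 and 74.3 CPM in dog 1, 154 and 32.2 CPM in dog 3, and 43.4 and 101 CPM in dog 4, primary tumor first. The metastasis was thus lower in 3 of 4 dogs, and the log2 fold change was -0.65 ± 1.06 (SE; edgeR, adjusted p = 1; n = 4 and 4).

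AQP5 was 464 and 444 CPM in dog 1, 179 and 167 CPM in dog 2, 24.6 and 6.75 CPM in dog 3, and 27.0 and 182 CPM in dog 4. Only dog 4 had the higher level in its metastasis. SLC12A2 was 673 and 708 CPM in dog 1, 71.6 and 231 CPM in dog 2, 628 and 239 CPM in dog 3, and 134 and 420 CPM in dog 4. It was thus higher in the metastasis of 3 of 4 dogs and stayed above every HGA in all 4 metastases.

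AQP3 was 1.51 and 0.649 CPM in dog 1, 32.0 and 88.9 CPM in dog 2, 4.74 and 32.5 CPM in dog 3, and 267 and 464 CPM in dog 4. The order of the dogs, from dog 1 through dogs 3 and 2 to dog 4, was the same in both tissues. SCNN1B kept dog 4 far above the others as well, at 68.9 CPM in the primary tumor and 88.5 CPM in the metastasis, against 0.593 to 6.54 CPM and 1.30 to 4.51 CPM in dogs 1 to 3.

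SCNN1A was the only member lower in the metastasis of 4 of 4 dogs, by 0.04 to 1.17 on the log2 scale from at most 31 counts in each sample, with a log2 fold change of -0.76 ± 0.38 (SE; edgeR, unadjusted p = 0.076, adjusted p = 1; n = 4 and 4). SCNN1G was higher in 2 of 4 metastases, between 3.54 and 65.8 CPM, AQP1 in 2 of 4, between 10.2 and 43.0 CPM, and ATP1B1 in 2 of 4, between 74.9 CPM in dog 3 and 1092 CPM in dog 4.

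**Figure D4:**
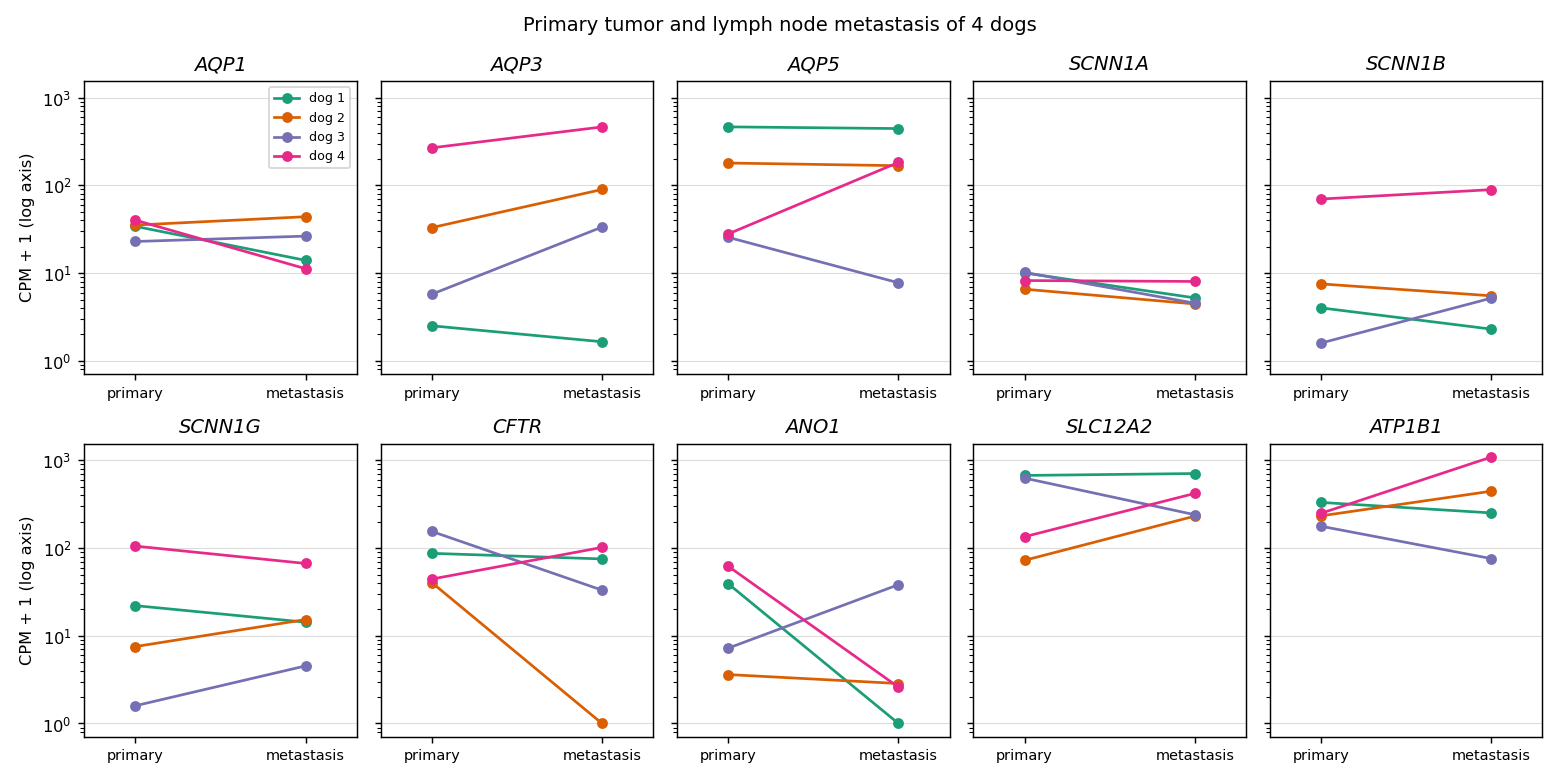
Level of each gene in the primary tumor and the metastasis of the same dog (vertical log axis, CPM + 1; 1 colored line per dog, 4 dogs). The lines for AQP3 and SCNN1B keep dog 4 on top on both sides, while ANO1 and CFTR cross, with ANO1 reaching 0 in the metastasis of dog 1 and CFTR in that of dog 2.

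The metastases were also compared with the same 10 HGA, a comparison that shares the HGA with the one above. Of the 9 members tested, 3 were called, all higher in metastases, beside 16.1% of all 13195 genes tested and 7.69% in that direction. AQP5 was 6.75 CPM in metastasis 3 and 167 to 444 CPM in the others, against at most 2.13 CPM in HGA, with a log2 fold change of 8.78 ± 0.91 (SE; edgeR, adjusted p = 2.57e-05; n = 4 and 10) that was 9.87 without HGA 7 and 8.06 without metastasis 1. SCNN1G, at 3.54, 13.3, 14.3 and 65.8 CPM in the metastases and at most 1.64 CPM in HGA, had a log2 fold change of 6.43 ± 0.96 (SE; edgeR, adjusted p = 0.000894; n = 4 and 10), and 7.58 without HGA 8. Both genes sit at or near 0 in HGA and pass the filter only through the metastases, where they are high. SLC12A2, at 231 to 708 CPM, had a log2 fold change of 5.91 ± 0.40 (SE; edgeR, adjusted p = 2.64e-07; n = 4 and 10). These 3 members were also the members without overlap between the groups, as were 16.1% of all genes tested.

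The remaining members did not separate metastases from HGA in the same way. AQP1 was lower in metastases by 2.18 ± 0.61 on the log2 scale (SE; edgeR, adjusted p = 0.112; n = 4 and 10) and was called when HGA 10 was left out. SCNN1B (log2 fold change 3.11; edgeR, adjusted p = 0.154) rested on metastasis 4, without which it was 0.24. ANO1 was 37.3 CPM in metastasis 3, while the other 3 metastases, at 0 to 1.86 CPM, lay within the HGA range of 0 to 6.78 CPM. Its log2 fold change was 1.60 (edgeR, adjusted p = 1) and turned to -1.49 without metastasis 3. AQP3 had a log2 fold change of 2.24 (edgeR, adjusted p = 0.59), which was 0.40 without metastasis 4, and SCNN1A and ATP1B1 lay at 0.01 and -0.19 (edgeR, adjusted p = 1 for both). CFTR, untested after filtering, was 32.2 to 101 CPM in 3 metastases and 0 in that of dog 2, with a log2 fold change of 8.78 without the filter (edgeR, adjusted p = 3.42e-05). Of 57 other pathway genes tested, 10 were called as higher in metastases and 9 as higher in HGA, beside 16.1% of all genes tested called in either direction.

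Hepatoid glands are androgen-responsive, and the labels record neutering, so intact and neutered dogs were compared within HGA. Of the 6 members tested 0 were called by edgeR, as were 0% of all 11906 genes tested, although 1167 genes (9.8%) and 2 members, AQP3 and ATP1B1, had an unadjusted p under 0.05. AQP3 was 4.49, 8.56, 10.2, 11.2, 17.8 and 17.8 CPM in the 6 intact and 43.0, 51.8, 55.7 and 85.4 CPM in the 4 neutered dogs. The groups did not overlap, as was the case for 2.62% of all genes tested. The means were 11.7 ± 5.28 and 59.0 ± 18.4 CPM (SD), and the log2 fold change, intact relative to neutered, was -2.35 ± 0.38 (SE; edgeR, unadjusted p = 3.57e-05, adjusted p = 1; n = 6 and 4). Primary AGASAC, 2 from intact and 9 from neutered dogs, had a mean of 242 ± 238 CPM (SD). The part of neuter status in the AQP3 difference between the tumor types was not tested.

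ATP1B1 ran the other way. It was 207, 677, 694, 715, 1064 and 1162 CPM in intact and 118, 152, 207 and 218 CPM in neutered dogs. All intact dogs but HGA 5 were above every neutered dog, so that the separate low and high HGA described above were nearly those of the neutered and the intact dogs. The log2 fold change was 2.12 ± 0.44 (SE; edgeR, unadjusted p = 0.000302, adjusted p = 1; n = 6 and 4). DESeq2, which called 23 genes in this comparison, called both AQP3 (-2.35, adjusted p = 0.000518) and ATP1B1 (2.13, adjusted p = 0.00392).

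Of the 6 intact dogs 4 were male, and of the 4 neutered dogs 1 was. With sex as a covariate the log2 fold change was -2.18 for AQP3 and 1.70 for ATP1B1 (edgeR, adjusted p = 1 for both). The neutered male, HGA 10, had 43.0 CPM of AQP3 and 218 CPM of ATP1B1, on the side of the neutered females for AQP3 and at the upper end of them for ATP1B1. AQP1, SCNN1A, ANO1 and SLC12A2 had log2 fold changes between -0.61 and -0.02 (edgeR, unadjusted p from 0.324 to 0.977). Of 49 other pathway genes tested, 0 were called.

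**Figure D5:**
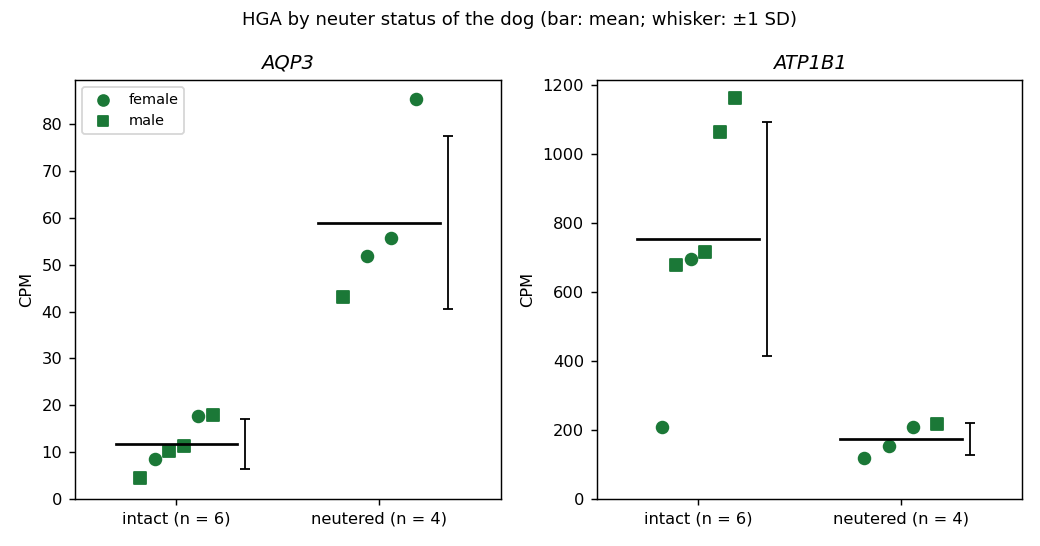
AQP3 (left) and ATP1B1 (right) in the HGA of 6 intact and 4 neutered dogs (vertical axis, CPM; 1 point per dog, circles female, squares male, bar at the mean, whisker ±1 SD). For AQP3 every neutered dog (43.0 to 85.4 CPM) is above every intact dog (4.49 to 17.8 CPM), and for ATP1B1 5 of 6 intact dogs are above every neutered dog.

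For each member that passed the filter, the genes with the most similar pattern were found by Pearson's r on the log2(CPM + 1) scale over the 25 samples, a measure that includes the difference between tumor types. SLC12A2 was most like TEX52 (r = 0.96) and SAT1 (r = 0.95), the latter the enzyme that acetylates spermidine and spermine, and AQP5 was most like SYT1, the calcium sensor of vesicle release, and SPAG6, a protein of the ciliary axoneme (r = 0.94 each). AQP1 was most like FAM241A and PLEC (r = 0.87 each). For AQP3 the closest genes were ACAP3 and the chemokine CCL2 (r = 0.73 and 0.72), and for SCNN1A a close gene was ARRDC3 (r = 0.78).

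SCNN1G was most like TPM4 (r = 0.88) and SCNN1B (r = 0.87), and SCNN1B was most like SCNN1G and then SLC13A3 (r = 0.80), a sodium-coupled dicarboxylate transporter. ANO1 was closest to NXT2 (r = 0.78) and the sulfate transporter SLC26A2 (r = 0.77), and ATP1B1 to the endothelin receptor EDNRB (r = 0.80) and REPS2 (r = 0.71). When each sample was taken as its deviation from its group mean, SCNN1B and SCNN1G were each other's closest gene (r = 0.86), ATP1B1 was again closest to EDNRB (r = 0.78) and ANO1 to SLC26A2 (r = 0.71). By the same measure AQP1 was closest to ATG12 (r = 0.85), AQP3 to MPZL1 (r = 0.79), AQP5 to PLXDC1 (r = 0.78), SCNN1A to NIPA2 (r = 0.81) and SLC12A2 to TCTEX1D2 (r = 0.82).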

How the data were processed

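RNA from archival tumor sections was sequenced by QuantSeq 3′ (Lexogen). The authors trimmed reads with Cutadapt, aligned them to CanFam3.1 with STAR and deposited raw counts per gene from 2 rounds of featureCounts, the second with genes extended by 2 kb at the 3′ end. Multi-mapped reads were kept, so that counts of near-identical genes are uncertain. The 25 normalized columns were not used, and genomic positions were not analysed here.

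Counts were tested with edgeR 4.0.16 (quasi-likelihood, R 4.3.3) after TMM normalization and filterByExpr (minimum count 10, total 15), with Benjamini-Yekutieli adjustment over all genes tested, called at 0.05 and a log2 fold change of 1. DESeq2 1.42.0, other filters, adjustments, scalings, batches, blocks and left-out samples were alternatives. The procedure was tested on simulated data. A floor is 3 counts per library, and 95% counting intervals and floors cover counting error only. The precision of a level follows the library totals given above. Samples were grouped by their labels. The members, the pathway and marker lists and the rule for named genes (all members, the 2 largest called changes per pathway list, the most similar genes per member) were chosen with earlier results of these data known. CDH5, TIE1, CLDN5, ESAM and the neighbouring pathway genes were named after their values were seen. Some genes that this rule names are not reported here. Metastases and primary tumors came in pairs from the same dogs: deviations of paired samples from their group means correlated at 0.43 to 0.73, each best with its own dog. The main fit did not use this pairing, and the dog as a block was an alternative. No 2 samples of a group were alike within sampling noise (chi-square per degree of freedom at least 12.2).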

Additional observations from a re-analysis of the deposited data

Results flagged for a closer look

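The 10 members were examined in HGA and in metastases, 20 sets of values in all, and not in the 11 primary AGASAC, since the criterion was applied to groups of 4 to 10 samples. Of the 20 sets, 4 held a sample far from the others by Dixon's criterion at the 95% level. Its error rate holds for normally distributed values, and it was applied to CPM, which are skewed and often 0. How many sets would be flagged by chance is therefore not known. SCNN1B was 88.5 CPM in metastasis 4 and at most 4.51 CPM in the other 3 metastases, and the primary tumor of that dog was also high, at 68.9 CPM. ANO1 was 37.3 CPM in metastasis 3 and at most 1.86 CPM in the others. CFTR was 1.08 CPM, from 2 counts, in HGA 5 and 0 in the other 9 HGA, a set in which any single value above 0 meets the criterion. SLC12A2 was 0.424 CPM, from 1 count, in HGA 9 and at least 5.46 CPM in the other 9 HGA.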

How the results depend on the processing

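Between HGA and primary AGASAC, 7 members were called. Alternatives that kept all samples gave 6 to 8, and a fit within batch 5 gave 0, within batch 6 gave 4, within batch 8 gave 1, within naming series A gave 4 and with a block by label number gave 3 (the replicate block changed no member's sign in this comparison). Of all genes tested, 25.1% were called in the main fit and 2.12%, 4.84% and 2.46% within batches 5, 6 and 8. The share was 16.1% within series A and 21.4% with the block by label number. Leaving out 1 sample gave 5 to 8. Where AQP5, SCNN1G and CFTR pass the filter, they do so only through the AGASAC, where they are high. Their part in these counts is no measure of stability. Label numbers do not pair these samples: same-numbered deviations correlated at -0.05 to 0.04, and no sample correlated best with its own number. For metastases against HGA, 3 members were called, against 1 with at least 10 counts in 0.5 of the samples, 5 with DESeq2, 5 with Benjamini-Hochberg adjustment, 2 with the block by label number and 2 to 4 with 1 sample left out. Of all genes tested there, 16.1% were called in the main fit and 15.3% with at least 10 counts in 0.5 of the samples. The share was 13.7% with DESeq2, 26.8% with Benjamini-Hochberg adjustment and 5.33% with the block. DESeq2 called 2 members between intact and neutered HGA, where edgeR called 0, and leaving out 1 sample gave 0 to 0 there and for metastases against primary tumors. AQP3 was no longer called against all 15 AGASAC samples (-2.79, adjusted p = 0.051).

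Some signs turned, all of values that were not called under that setting. Between HGA and primary AGASAC these were SCNN1A (0.11) and ATP1B1 (-0.48) within batch 6 and AQP3 (1.23) within naming series A. For metastases against primary tumors, SCNN1G was 0.11 with the dog as a block and 0.30 with DESeq2 and that block, chosen after seeing the data, and against all 11 primary tumors AQP3 was -0.74, AQP5 -0.0068 and SCNN1B -0.98. The dog block changed no call of a member. For metastases against HGA, ATP1B1 was 0.078 with library size alone, and SCNN1A was -0.24 and ANO1 -1.41 with the block by label number. Between intact and neutered HGA with sex as a covariate, AQP1 was 0.67, SCNN1A 0.44 and ANO1 0.81. The cause was not tested.

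With 1 sample left out, log2 fold changes of metastases against primary tumors ranged from -0.92 to 3.54 for AQP3, -0.53 to 1.38 for AQP5, -2.57 to 2.88 for SCNN1B, -1.70 to 1.39 for SCNN1G and -0.33 to 0.52 for SLC12A2. Against HGA they ranged from -0.28 to 0.12 for SCNN1A, -1.49 to 2.02 for ANO1 and -1.05 to 0.17 for ATP1B1, and between intact and neutered HGA from -0.41 to 0.22 for AQP1, -0.44 to 0.18 for SCNN1A and -0.54 to 0.36 for ANO1. Scaling by library size alone moved the median log2 fold change of all genes from -0.03 to -0.33 between HGA and AGASAC, where 1053 of 3209 called genes were then higher in HGA against 1523 of 3032, and from -0.02 to 0.26 for metastases against HGA, where 1383 of 2171 were higher in metastases against 1015 of 2124. Levels near 1 CPM rest on a few counts, and 4 metastases limit every comparison with them.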
